A study of Homo sapiens with 2 samples.

Results

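The genes examined here were 8 genes of autophagy and the lysosome, SQSTM1, GABARAPL1, MAP1LC3B, WIPI1, LAMP1, LAMP2, CTSD and CTSB, in Huh-7 cells, an established line of human hepatocellular carcinoma. Huh-7 cells were kept for 24 h in 0.1% DMSO, the solvent control, or in 0.1 mM BS008, a derivative of the diuretic amiloride that carries an added dichlorobenzoyl group, and RNA was sequenced from 1 library of each. The treatment label of the control sample names DMSO, but its treatment protocol text, the same for both samples, names BS008, so every direction below rests on the treatment label. The deposited files list exons by position on hg19, without gene names. A gene's members were therefore all rows (1 row is 1 listed exon interval) inside a fixed hg19 window on the gene's strand, which gave 78 of 239322 rows for the 8 genes. With 1 library for each condition the spread between cultures is unknown. No difference below has a replicate check or a p-value, and the 95% intervals cover the counting of reads only.

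Autophagy encloses cytoplasm in a double membrane and delivers it to the lysosome, where hydrolases degrade it. WIPI1 marks the membrane at which the enclosing vesicle forms, MAP1LC3B (LC3B) and GABARAPL1 belong to the ATG8 family of ubiquitin-like proteins that are attached to that membrane, and SQSTM1 (p62) is a receptor that binds ubiquitinated cargo to them. LAMP1 and LAMP2 are heavily glycosylated proteins of the lysosomal membrane, and CTSD and CTSB encode cathepsins, an aspartic and a cysteine protease of the lysosomal interior. Many genes of this system carry an E-box (CACGTG) near their start that TFEB and its relatives can bind, and SQSTM1 is a known target of NRF2, which binds antioxidant response elements.

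The promoter sequences are shown because the 8 genes moved the same way and known regulators of this system bind near the start. For 6 of the genes, 8 promoter windows from RefSeq (GRCh38.p14) were used. Each ran from 250 bases before to 50 bases after the start. No window of LAMP2 or CTSB was used, which does not show that RefSeq lacks one. Both strands were searched for the E-box CACGTG, its extension TCACGTGA, which contains the E-box, the core of the antioxidant response element TGACNNNGC, and the C/EBP-ATF element TTGCATCA. The 3 genes with a match are printed below as the 250 bases upstream of the start, 5′ to 3′ on the gene's strand, with matches to the E-box and to TGACNNNGC in capitals.
LAMP1 (chr13:113296989-113297238, plus strand): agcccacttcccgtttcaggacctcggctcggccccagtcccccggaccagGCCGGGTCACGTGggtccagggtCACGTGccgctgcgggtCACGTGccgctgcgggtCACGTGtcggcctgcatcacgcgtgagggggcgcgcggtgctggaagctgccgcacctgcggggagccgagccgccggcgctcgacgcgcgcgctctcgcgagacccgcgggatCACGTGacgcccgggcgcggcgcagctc
CTSD (chr11:1763928-1764177, minus strand): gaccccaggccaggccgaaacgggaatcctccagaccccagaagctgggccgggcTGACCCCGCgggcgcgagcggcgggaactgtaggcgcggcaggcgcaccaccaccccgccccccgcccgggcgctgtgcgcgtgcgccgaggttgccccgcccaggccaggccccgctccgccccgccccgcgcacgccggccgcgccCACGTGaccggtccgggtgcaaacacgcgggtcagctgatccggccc
MAP1LC3B (chr16:87392086-87392335, plus strand): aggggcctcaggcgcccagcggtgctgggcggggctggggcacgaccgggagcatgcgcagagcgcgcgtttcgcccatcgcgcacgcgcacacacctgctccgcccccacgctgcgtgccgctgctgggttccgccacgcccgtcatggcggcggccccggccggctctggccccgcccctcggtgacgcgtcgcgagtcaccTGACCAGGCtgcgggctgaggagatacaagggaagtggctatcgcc
LAMP1 held 6 E-boxes, of which the first overlaps the TGACNNNGC match and the last crosses the start, so that 5 are in capitals. CTSD held 1, at position -47 from the start. The E-box was found in 7.26% of all 35116 promoter windows of this length. TCACGTGA was found in LAMP1 alone among the 6 genes, at positions -29 and -2, and in 0.98% of all windows. LAMP1, CTSD and MAP1LC3B matched TGACNNNGC, which 13.3% of all windows did. CTSD matched it a further time at position 5 after the start, outside the printed bases. No window of the 6 genes held TTGCATCA, against 0.866% of all. The windows of SQSTM1, GABARAPL1 and WIPI1 held none of these letters, which says only that they are not in these windows.

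Reads counted on exons summed to 55476654 in the control library and 53578432 in the BS008 library. Of the rows listed, 131330 had at least 10 counts in either library, and their median log2 ratio of BS008 to control was -0.04. A pseudocount of 0.5 was added to CPM (counts divided by their sum in a library) before log2 ratios were taken. The 2-fold calls used these log2 ratios, whereas the folds printed with intervals are ratios of CPM without the pseudocount. Both are relative to the library total, and the log2 ratios of rows with few reads are pulled towards 0. A row with few reads can thus have a fold above 2 without being called. In bulk RNA, fewer cells of a kind and less RNA per cell cannot be told apart. Of the 4 hepatocyte markers, ALB was at 2164 RPKM (reads scaled to exon length and library total) in control and 2521 in BS008 cells, AFP at 1178 and 806, APOA1 at 547 and 417, and TTR at 11.1 and 7.84. All 4 were thus read in both libraries, and 3 of them were lower with BS008, but none differed by 1.5-fold in either direction.

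All 8 genes were higher in the BS008 library. SQSTM1, GABARAPL1, MAP1LC3B, WIPI1 and CTSB were at least 2-fold higher, and CTSD, LAMP1 and LAMP2 rose less. The median log2 ratio of the 8 genes was 1.16, and together they took 0.137% of the reads in control cells and 0.271% after BS008. For a background of similar size, neighbouring rows on a strand were joined into runs where gaps were at most 10 kb, and of the 16040 runs with at least 100 counts, 8% reached 2-fold in the higher direction and 6.98% in the lower, with a median log2 ratio of -0.04. The same call was met by 5 of the 8 genes, and none was 2-fold lower. At 1.5-fold the background was 17.1% of runs, and 6 of the 8 genes were past it. A run can hold more than 1 gene or part of 1, and the 8 genes were selected with results of these libraries known, so these shares are set side by side as a description.

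**Figure D1:**
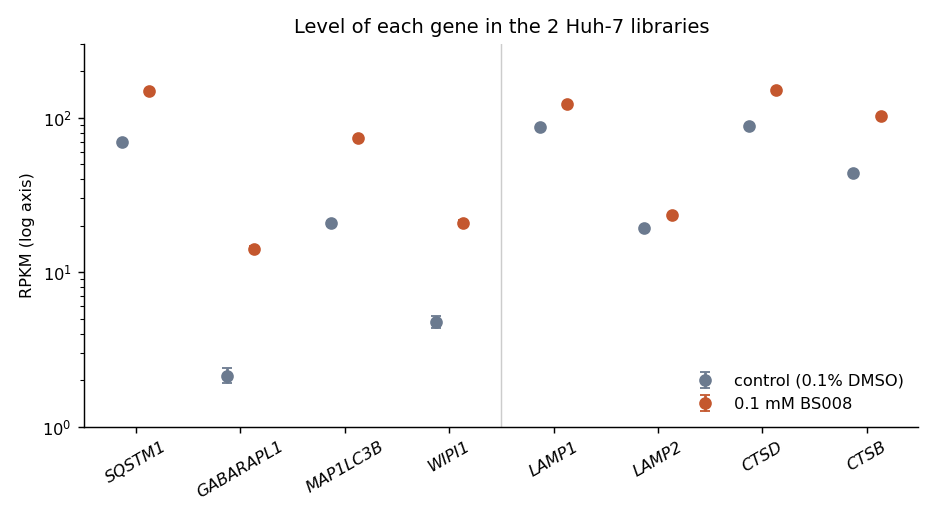
RPKM of the 8 genes on a log axis in the control (grey) and BS008 (orange) libraries, with counts summed over a gene's rows and exact 95% Poisson intervals that are mostly narrower than the points; the line separates autophagy genes (left) from lysosome genes (right). Every BS008 point lies above its control point, with the widest gap for GABARAPL1 (2.14 to 14.2 RPKM) and the narrowest for LAMP2 (19.2 to 23.3 RPKM).

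Single rows gave the same picture. Of the 78 rows, 75 had at least 10 counts in either library, and 74 of these were higher with BS008. At least 2-fold higher were 39 rows (52%), against 3.73% of all such rows in the files. None of the 75 was at least 2-fold lower, against 3.79% of all. The median log2 ratio of the rows was 1.00. These rows are parts of 8 genes and not independent of each other. The 3 rows below 10 counts were in SQSTM1 (6 reads in control and 8 in BS008), GABARAPL1 (2 and 8) and LAMP2 (2 and 5).

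**Figure D2:**
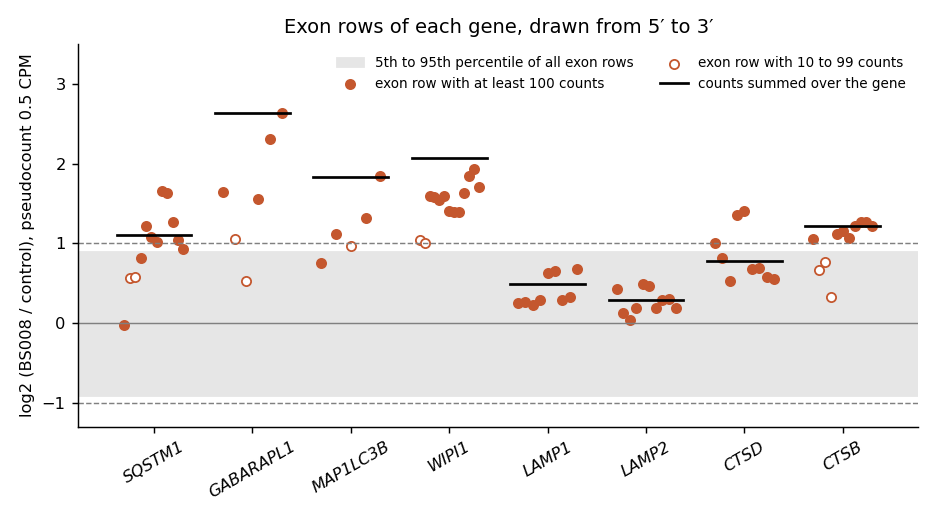
Log2 ratio of BS008 to control (pseudocount 0.5 CPM) for the 75 rows with at least 10 counts, by gene and from 5′ to 3′ within a gene; filled points have at least 100 counts, black lines give the ratio of the summed counts, the grey band spans the 5th to 95th percentile of all 131330 rows, and dashed lines mark 2-fold. All 13 rows of WIPI1 lie at or above 2-fold, no row of LAMP1 or LAMP2 does, and the first row of SQSTM1 is the only point below 0.

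Of the genes that build the autophagic membrane, WIPI1 binds phosphoinositides where the vesicle begins. On its 13 rows (chr17:66417423-66453653, minus strand), 509 reads were counted in control and 2150 in BS008 cells, or 4.76 and 20.8 RPKM. This was 4.37-fold higher with BS008 (95% interval 3.97 to 4.83). The rise ran along the whole gene, since all 13 rows were at least 2-fold higher and their folds lay between 3.55 (row 8, 49 and 168 reads) and 6.14 (row 11, 28 and 166 reads). The first row had 10 and 48 reads, and the last row, of 539 bases, had 125 and 456. Row 12 had the highest log2 ratio among rows with at least 100 counts, 1.94, from 39 and 220 reads, and row 9 the lowest, 1.39, from 44 and 155.

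GABARAPL1, an ATG8 family member that acts late in vesicle closure and fusion, had the lowest level and the widest rise of the 8 genes. Its 7 rows (chr12:10365489-10375722, plus strand) held 345 reads in control and 2212 in BS008 cells, or 2.14 and 14.2 RPKM. The fold was 6.64 (5.92 to 7.46) and the log2 ratio 2.64. The last row, of 1337 bases, had 242 and 1584 reads (6.78-fold, 5.92 to 7.79). The first row had 30 and 147 reads (5.07-fold, 3.41 to 7.79), and row 5, the lowest of the rows with at least 100 counts, had 27 and 128 (4.91-fold, 3.22 to 7.74). These intervals overlap, so this depth does not settle whether the folds along the gene were equal. Rows 3 and 4 had 3 and 1 reads in control cells against 35 and 13 with BS008, which leaves their folds of 12.1 (3.81 to 61.4) and 13.5 (2.02 to 572) poorly set. Of the 50-base stretches of its transcript, 1.62% also occur in genes elsewhere, foremost GABARAPL3, so a few reads may belong there.

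MAP1LC3B encodes LC3B, whose lipid-bound form is the common marker of autophagic vesicles. Its 5 rows (chr16:87425801-87438379, plus strand) held 2721 reads in control and 9378 in BS008 cells, or 20.6 and 73.7 RPKM. The level was 3.57-fold higher (3.42 to 3.73). The last row, of 1851 bases, carried 2585 and 8994 of these reads (3.60-fold, 3.45 to 3.77), so the gene's value is nearly that of its last row. The first row rose less, from 57 to 111 reads (2.02-fold, 1.45 to 2.83), while the other rows together were 3.60-fold higher (3.45 to 3.76), and these intervals do not overlap. The gene's share of reads on that row was 2.09% (1.62 to 2.70%, Wilson) in control and 1.18% (0.984 to 1.42%) in BS008 cells. Of its 50-base stretches, 10% also occur in genes elsewhere, the largest share among the 8 genes, foremost in its near copy MAP1LC3B2, and how reads with several matches were counted is not given.

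SQSTM1, the cargo receptor, had the largest number of reads of the 8 genes. On its 13 rows (chr5:179233388-179265075, plus strand), 23434 reads were counted in control and 48684 in BS008 cells, or 69.2 and 149 RPKM. This was a 2.15-fold rise (2.12 to 2.18). Rows 6 to 12, which hold most of the coding exons, were all at least 2-fold higher. The fold was not even along the gene, however. Row 9 (142 bases) went from 1013 to 3129 reads and row 10 (81 bases) from 1025 to 3113. Together they were 3.17-fold higher (3.02 to 3.34), against 2.05-fold (2.02 to 2.09) for all other rows of the gene. Their share of the gene's reads was 8.70% (8.34 to 9.06%) in control and 12.8% (12.5 to 13.1%) in BS008 cells. This pair of rows was singled out after the values had been seen, as were the other groups of rows described here for MAP1LC3B, CTSD and LAMP1.

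The first and last listed rows of SQSTM1 overlap rows of the opposite strand. Whether the counting used strand is not given in the sources used here. The first row (204 bases) had 292 reads in control and 276 in BS008 cells (0.979-fold, 0.827 to 1.16), and shares 105 bases with an opposite-strand row that had 316 and 293. The counts of the 2 rows are alike in both libraries, and which gene the reads belong to cannot be told apart. SQSTM1 has promoter windows at several starts, so its first listed row need not be the 5′ end of most of its transcripts. Rows 2 to 5 had far fewer reads than row 6, which had 1330 and 3030 (2.36-fold, 2.21 to 2.52). The last row (1640 bases) had 8475 and 15577 reads (1.90-fold, 1.85 to 1.95). It shares 1190 bases with 2 opposite-strand rows, which had 3907 and 7458 reads in all. Without the first and last rows, the log2 ratio of SQSTM1 was 1.21 in place of 1.10, so the call does not rest on them.

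**Figure D3:**
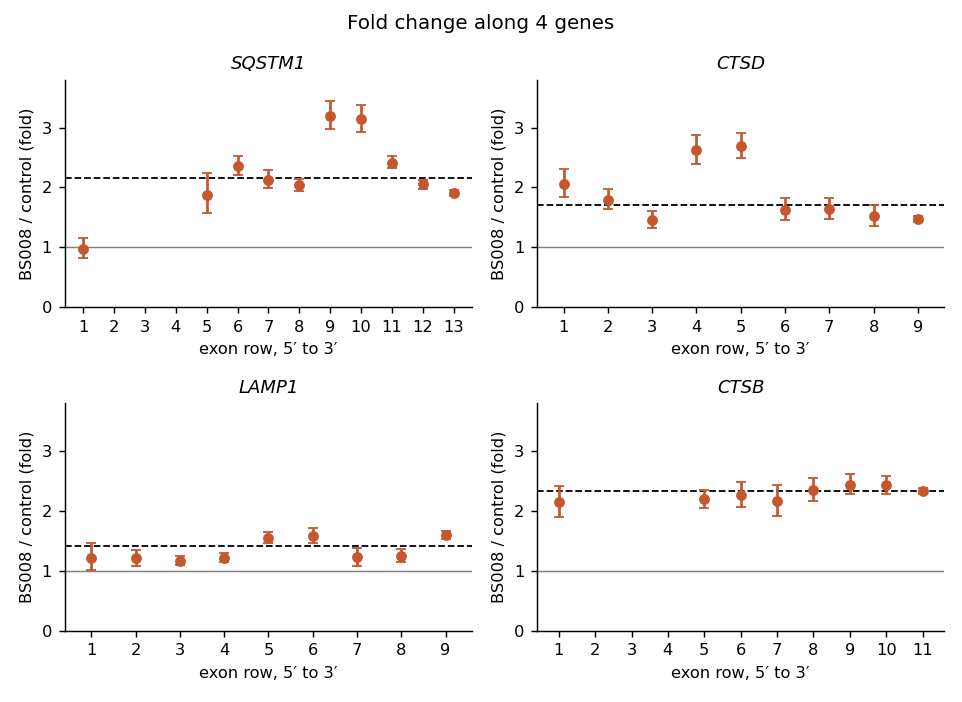
Fold of BS008 over control for each row with at least 100 counts in either library, from 5′ to 3′, in SQSTM1, CTSD, LAMP1 and CTSB; bars are exact 95% intervals for counting error, the dashed line is the fold of the summed counts and the solid line marks no change. Rows 9 and 10 of SQSTM1 and rows 4 and 5 of CTSD stand above the rest of their genes, while the rows of CTSB lie between 2.14 and 2.44.

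Among the lysosomal genes, CTSB, the cysteine protease cathepsin B, rose the most. Its 11 rows (chr8:11700036-11725646, minus strand) held 16535 reads in control and 37211 in BS008 cells, or 43.8 and 102 RPKM. The level was 2.33-fold higher (2.29 to 2.37). All 8 rows with at least 100 counts were at least 2-fold higher, from 2.14-fold on the first row (394 and 816 reads) to 2.44-fold on row 9 (1215 and 2866 reads), and the last row, of 4642 bases, had 10292 and 23177 reads. The rise was thus nearly even along CTSB. Rows 2 to 4, in the 5′ part of the gene, had few reads, and row 3 had 2 in control and 22 in BS008 cells (11.4-fold, 2.80 to 99.9).

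CTSD, the aspartic protease cathepsin D, had the highest level per length over all listed rows in both libraries. It was not clearly above LAMP1 in control or SQSTM1 in BS008 cells. This rank depends on the rows listed. SQSTM1 includes rows 3 and 5 (1104 and 1192 bases), which had only 24 and 193 reads in control and 47 and 349 in BS008 cells. These rows lower the level per length of SQSTM1. On the 9 rows of CTSD (chr11:1773985-1785222, minus strand), 10398 reads were counted in control and 17197 in BS008 cells, or 88.2 and 151 RPKM. The rise was 1.71-fold (1.67 to 1.75), below the 2-fold call. As in SQSTM1, a pair of neighbouring rows rose more than the others. Row 4 (119 bases) had 654 and 1655 reads and row 5 (233 bases) 895 and 2325, together 2.66-fold higher (2.51 to 2.82) against 1.55-fold (1.51 to 1.59) for all other rows. Their share of the gene's reads was 14.9% (14.2 to 15.6%) in control and 23.1% (22.5 to 23.8%) in BS008 cells. The first row had 458 and 913 reads (2.06-fold, 1.84 to 2.31), row 3 had 667 and 940 (1.46-fold, 1.32 to 1.61), and the last row, of 916 bases, had 5427 and 7689 (1.47-fold, 1.42 to 1.52). Without the first and last rows the log2 ratio of CTSD was 0.98 in place of 0.77. In GENCODE, 60.6% of the 50-base stretches of the CTSD transcript are also in AC068580.4, an overlapping gene model at the same locus.

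LAMP1, a major protein of the lysosomal membrane, rose by less. Its 9 rows (chr13:113951469-113977741, plus strand) held 12230 reads in control and 16649 in BS008 cells, or 86.8 and 122 RPKM, which was 1.41-fold higher (1.38 to 1.44). No row reached 2-fold. The first row had 210 and 247 reads (1.22-fold, 1.01 to 1.47), and row 3, the lowest, had 1506 and 1703 (1.17-fold, 1.09 to 1.26). The last row, the highest, had 3450 and 5347 (1.60-fold, 1.54 to 1.68). Rows 5 and 6 together were 1.57-fold higher (1.49 to 1.64), against 1.36-fold (1.32 to 1.40) for all other rows. These other rows include the last row, and the rest of them lay between 1.17-fold (row 3) and 1.26-fold (row 8). Rows 5 and 6 were thus not apart from the last row. With the last row and the first left out, the log2 ratio of LAMP1 was 0.42 in place of 0.49.

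LAMP2 had the smallest rise. Its 11 rows (chrX:119560004-119603204, minus strand) held 10082 reads in control and 11857 in BS008 cells, or 19.2 and 23.3 RPKM, a 1.22-fold difference (1.19 to 1.25). Row 6 had the highest ratio, with 1159 and 1582 reads (1.41-fold, 1.31 to 1.53), and row 4 the lowest, with 904 and 893 (1.02-fold, 0.931 to 1.12). The first row had 179 and 242 reads (1.40-fold, 1.15 to 1.71). Because both long last rows had low RPKM, the level per length of LAMP2 over all rows is well under that of its inner rows.

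LAMP2 ends in alternative last exons that give proteins with different membrane anchors and cytosolic tails, and the form named A is the receptor of chaperone-mediated autophagy. The coding part of each last exon, without the stop codon, is shown because it is where the isoforms differ (GENCODE 29, GRCh38, minus strand, 5′ to 3′). Capitals mark the last 5 codons, which encode the tyrosine-based signal that sorts the protein to the lysosome.
LAMP2 form A (chrX:120431326-120431462): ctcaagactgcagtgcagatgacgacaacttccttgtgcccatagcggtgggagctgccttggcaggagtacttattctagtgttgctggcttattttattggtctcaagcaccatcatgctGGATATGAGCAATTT
LAMP2 form B (chrX:120439157-120439293): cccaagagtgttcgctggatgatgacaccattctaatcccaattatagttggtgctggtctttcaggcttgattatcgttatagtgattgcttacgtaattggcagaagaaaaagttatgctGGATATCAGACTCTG
LAMP2 form C (chrX:120428487-120428626): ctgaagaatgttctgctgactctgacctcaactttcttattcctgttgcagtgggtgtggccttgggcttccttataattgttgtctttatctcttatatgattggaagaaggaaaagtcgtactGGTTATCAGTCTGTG
The distance from the preceding exon placed all 3 last exons on rows of the files. Row 11 (chrX:119560004-119565317 on hg19) begins where the last exon of form A begins and also holds that of form C, which starts 2836 bases further in. With 5314 bases against 637 for the last exon of form A in GENCODE, its reads cannot be given to either form. It had 1342 reads in control and 1484 in BS008 cells (1.14-fold, 1.06 to 1.23). Row 10 (chrX:119570349-119573148), the last exon of form B, had 3066 and 3654 (1.23-fold, 1.18 to 1.30). Of the reads on these 2 rows, 69.6% (68.2 to 70.9%) were on row 10 in control and 71.1% (69.9 to 72.3%) in BS008 cells, and these intervals overlap. This share sets form B against forms A and C together. The rows also differ in length, so it compares the libraries and is not the share of any form among LAMP2 transcripts.

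**Figure D4:**
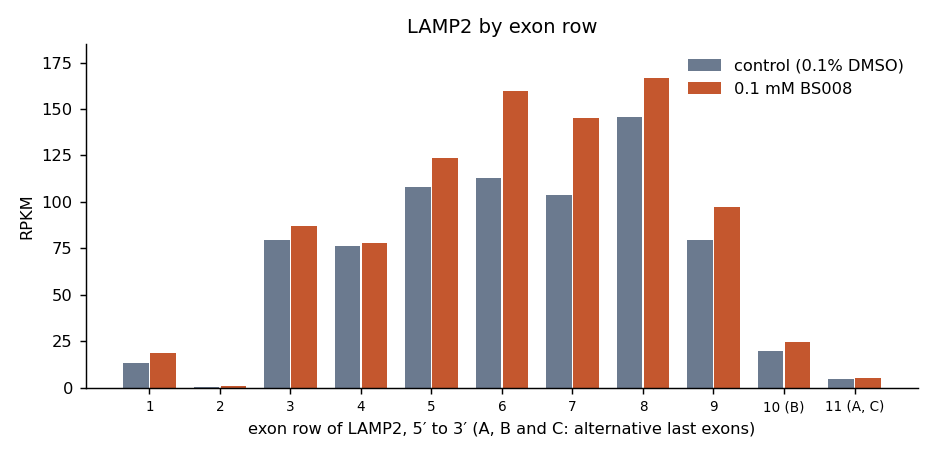
RPKM of the 11 rows of LAMP2 from 5′ to 3′ in the control (grey) and BS008 (orange) libraries, 1 library each, without error bars. The inner rows 3 to 9 lie well above the long last rows 10 and 11, and both last rows were slightly higher with BS008 (19.7 to 24.4 and 4.55 to 5.21 RPKM).

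The share of a row among itself and its nearest neighbours on the strand, within 10 kb, was used to ask whether exon use within the 8 genes differed. Of 77 rows with at least 20 reads on row and neighbours in each library, 3 (3.90%) changed by at least 10 percentage points, against 7.11% of all such rows in the files. These were row 5 of GABARAPL1 (39.7% in control, 28.9 to 51.6%, and 29.2% in BS008 cells, 25.2 to 33.6%), row 1 of MAP1LC3B (62.6%, 52.4 to 71.9%, and 52.1%, 45.4 to 58.7%) and row 3 of CTSB (4.55%, 1.26 to 15.1%, and 20.6%, 14.0 to 29.2%). The intervals of the 2 libraries overlap in each of the 3 rows, which had 68, 91 and 44 reads with their neighbours in control cells. Overlap does not show equal shares, and for row 3 of CTSB it spans only 14.0 to 15.1%. With at least 100 reads in each library, 0 of 62 rows passed, against 3.13% of all such rows. The higher folds of rows 9 and 10 of SQSTM1 and rows 4 and 5 of CTSD changed by less than 10 points here, where each row of a pair is counted among the other's neighbours. The median absolute change in share was 1.52 points over the rows of the 8 genes and 2.16 points over all rows tested.

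The order of the levels per length, taken over all listed rows, shifted between the libraries. In control cells, in RPKM, CTSD and LAMP1 were highest with overlapping intervals, followed by SQSTM1, CTSB, MAP1LC3B, LAMP2, WIPI1 and GABARAPL1. In BS008 cells CTSD and SQSTM1 were highest, again with overlapping intervals, and LAMP1 came after them, while the order of the other 5 genes was as in control cells. No other neighbours in these orders had overlapping intervals. These intervals cover counting only, and the orders depend on row lengths as well as on reads. Rows 3 and 5 of SQSTM1 have few reads for their length, and the long rows 10 and 11 of LAMP2 have low RPKM beside its inner rows. No order was computed without these rows, so the ranks of SQSTM1 and LAMP2 are not settled. The range from the lowest to the highest gene was 2.14 to 88.2 RPKM in control and 14.2 to 151 RPKM in BS008 cells.

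By role, SQSTM1, GABARAPL1, MAP1LC3B and WIPI1 were all at least 2-fold higher, with a median log2 ratio of 1.95 (1.10 to 2.64). Of the 4 lysosome genes 1 was, CTSB, and their median was 0.63 (0.28 to 1.22). To place these values, 24 other genes of the same pathways were measured in the same way. Of 12 other genes of the autophagy machinery, 3 were at least 2-fold higher, against 8% of all runs, and 7 at least 1.5-fold higher, against 17.1%. All 12 were above 0, with a median log2 ratio of 0.69. The highest were OPTN (optineurin), NBR1 and ULK1. OPTN, a cargo receptor like SQSTM1, went from 5.09 to 17.6 RPKM (3.45-fold, 3.22 to 3.70). NBR1, another cargo receptor, went from 14.2 to 36.9 RPKM (2.60-fold, 2.53 to 2.68), and ULK1, the kinase that starts autophagy, from 5.73 to 14.4 RPKM (2.51-fold, 2.37 to 2.66). The lowest was GABARAPL2, an ATG8 family member like GABARAPL1, at 16.5 and 17.6 RPKM (1.07-fold, 0.974 to 1.17).

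Of 12 other lysosome genes, none was at least 2-fold higher and 3 were at least 1.5-fold higher, near the 8% and 17.1% of all runs. Above 0 were 11, and the median log2 ratio of the 12 genes was 0.27. The highest were CTSL, which encodes cathepsin L, from 22.3 to 39.9 RPKM (1.79-fold, 1.69 to 1.89), the lysosomal channel gene MCOLN1 (1.74-fold, 1.57 to 1.93) and PSAP, the precursor of the saposins (1.55-fold, 1.52 to 1.57). CTSZ, which encodes cathepsin Z, was the only one of the 24 below 0, with 51.2 RPKM in control and 43.5 in BS008 cells (0.849-fold, 0.815 to 0.885), and CTSA was nearly level at 178 and 191 RPKM (1.07-fold, 1.05 to 1.09). None of the 24 was at least 2-fold lower, against 6.98% of all runs. CTSB thus lay above all 12 other lysosome genes, and LAMP2 lay near their median. Neither list was tested against other genes, since genes of 1 pair of libraries are not replicates.

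**Figure D5:**
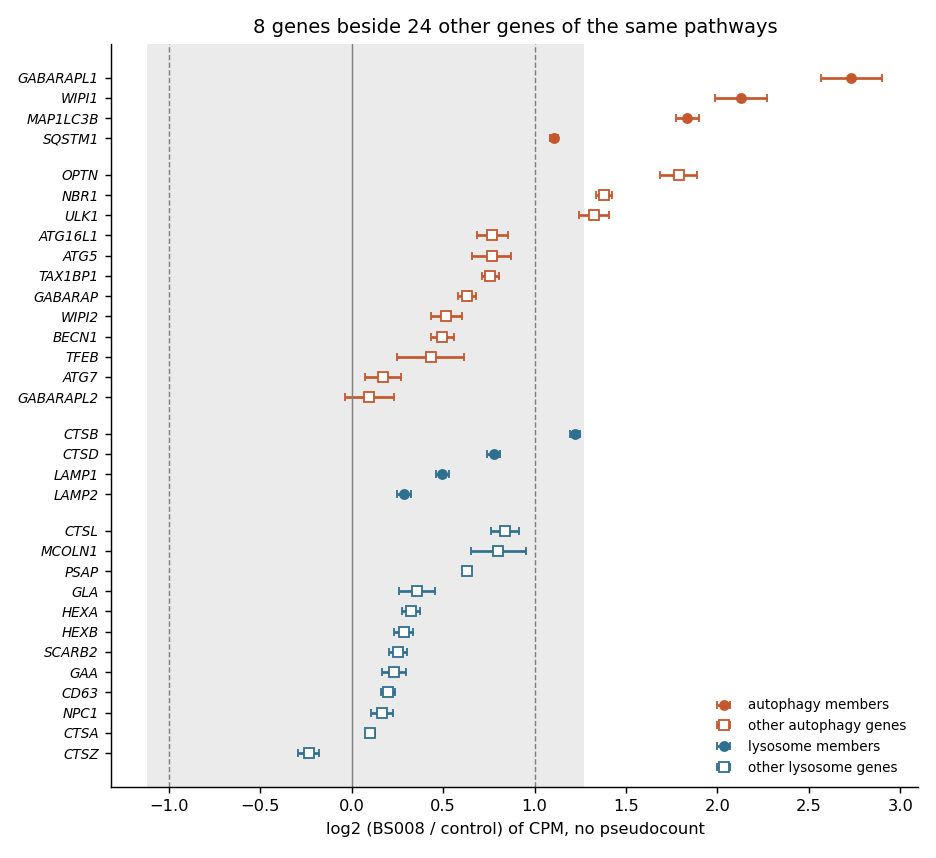
Log2 fold of BS008 over control, without a pseudocount, for the 8 genes (filled circles) and 24 other genes of autophagy (orange squares) and the lysosome (blue squares), sorted within each group; bars are exact 95% intervals for counting error, dashed lines mark 2-fold and the grey band spans the 5th to 95th percentile of the 16040 runs (pseudocount 0.5 CPM). GABARAPL1, WIPI1, MAP1LC3B, OPTN, NBR1 and ULK1 lie to the right of the band, and CTSZ is the only gene left of 0.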

How the data were processed

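RNA of Huh-7 cells was prepared as an mRNA library and sequenced, with 1 library for each condition. For each library the authors deposited raw read counts per exon and the same values as RPKM, which they scaled to exon length and to the total of the counts, and recomputing RPKM from the counts differed by at most 4.72e-06. The build hg19 is from the submitters' processing notes. Aligner, counter, annotation and the use of strand are not given in the sources used here. Groups follow the treatment characteristic of each sample. The protocol text of both samples names BS008, also for the control, so the labels disagree for that sample.

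Counts were summed over the rows of a gene and divided by the library total (55476654 and 53578432), and log2 ratios (BS008 over control) used CPM with a pseudocount of 0.5. A row or gene was called at 2-fold on this log2 ratio, rows with at least 10 counts in either library. Folds printed with intervals used no pseudocount. Fold intervals are exact (conditional binomial), those of RPKM exact Poisson and those of shares Wilson, all at 95% and for counting error only. PCR copies of a molecule cannot be told apart in these counts. The smallest share that 3 counts allow was 5.41e-06% in control and 5.60e-06% in BS008. No test was made, since the spread between cultures cannot be estimated from single libraries. The ratios, calls and fold intervals were tested on simulated counts with known folds and counting error only. Shares were computed on these counts too, but were not checked against known share changes.

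The members, the other genes and the motifs were chosen with earlier results of these data known. Windows of the members were given. Those of the 24 other pathway genes and 4 markers were not read from a file: they were set from general knowledge of hg19 and then checked against row and gap lengths of the gene in GENCODE 29, which is on GRCh38 and was used for lengths and transcript sequence only. At least 2 row lengths and 2 gap lengths had to match. This minimum was set after the matches and the ratios of these genes had been seen, and it removed 0 genes. The matches were fewest for GABARAP and CTSZ. All members were named, with the rows of highest and lowest log2 ratio among those with at least 100 counts, the first and last rows, rows whose share changed by at least 10 points and the last exons of LAMP2, and of the 24 other pathway genes the 3 highest (OPTN, NBR1, ULK1) and the 3 lowest (CTSZ, GABARAPL2, CTSA). CTSL, MCOLN1 and PSAP were named outside this rule, after their values were seen. The minimum of 100 counts for runs, the split of the members by role and the check of 50-base stretches were set once values were known. Alternatives were other pseudocounts, TMM and median-ratio size factors, totals without mitochondrial exons, and other count minimums, thresholds and neighbour distances. Computations used Python 3.11.15, numpy 2.4.6, pandas 2.3.3, scipy 1.17.1, matplotlib 3.10.9 and, for TMM, edgeR 4.0.16 in R 4.3.3.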

Additional observations from a re-analysis of the deposited data

How the results depend on the processing

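No paired analysis was possible because each condition has 1 library, and for the same reason no replicate could be left out. The counts of genes and of rows past 2-fold stayed within 1.5 times their values under the alternatives of pseudocount, size and count minimum. At a 1.5-fold threshold, 6 genes, against 17.1% of runs, and 51 rows were past it in the higher direction. The share of all rows at 1.5-fold was not computed. All 64 recomputed log2 ratios of single genes kept their sign, but most could not have changed it. Other pseudocounts cannot reverse a sign, and leaving out overlapping rows removed 0 rows of these genes. The size alternatives shift ratios by at most 0.049, against a smallest ratio of 0.28. Only the median of row ratios and leaving out end rows could have reversed one. The median log2 ratio of the 8 genes, 1.16, was 1.21 with TMM sizes, 1.19 with median-ratio sizes, 1.07 with the median of a gene's row ratios and 1.22 without first and last rows. Before the pseudocount, TMM sizes shift log2 ratios by 0.049 and median-ratio sizes by 0.032. The ratios of genes with few reads moved most with the median of row ratios, where the pseudocount weighs on single rows. GABARAPL1 then had 1.59 in place of 2.64, WIPI1 1.58 in place of 2.07 and MAP1LC3B 1.11 in place of 1.82. The 3 rows with a share change of at least 10 points became 5 with neighbours within 100 kb and 12 at a minimum of 5 points. There were 0 with at least 100 reads, at a minimum of 20 points and as a share of all reads on the gene. What depth limits here are rows with few reads, such as rows 3 and 4 of GABARAPL1, and no depth replaces a second culture.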
